A study of Mus musculus with 17 samples.

Results

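The core circadian clock was examined through 10 genes, Arntl, Clock, Npas2, Per1, Per2, Per3, Cry1, Cry2, Nr1d1 and Dbp, chosen by name as the transcriptional activators, repressors and first output of the clock. The array carried 23 probe sets for them, out of 45037 probe sets and 18193 named genes measured. Livers came from male mice in 4 groups. The groups were 3 arrays of aryl hydrocarbon receptor (AHR) knockouts (Ahr–/–) given TCDD, 3 of knockouts given corn oil, 6 of wild types (Ahr+/+) given TCDD and 5 of wild types given corn oil. TCDD (2,3,7,8-tetrachlorodibenzo-p-dioxin), the prototype AHR ligand, was given once by gavage at 1000 µg/kg, the control mice received the corn oil vehicle, and all livers were taken 19 h later. Both genotypes were of C57BL/6J background. The knockouts were 10 weeks old and were bought from The Jackson Laboratory, whereas the wild types were 15 weeks old and were bred in Kuopio from stock of that origin, so genotype, age and source cannot be told apart. The sources used here do not state the clock hour of dosing or harvest, nor that each array stands for a separate mouse, so p-values measure only the spread between arrays.

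In the mammalian clock a heterodimer of BMAL1 (the product of Arntl) with CLOCK or its relative NPAS2 binds E-boxes and drives transcription of the Period and Cryptochrome genes, whose proteins return to repress the heterodimer. A second loop runs through REV-ERBα (Nr1d1), which is driven by the heterodimer and represses Arntl, Npas2 and Cry1 through response elements shared with the ROR receptors. In liver most of these transcripts and the output gene Dbp cycle daily with large amplitude, with Arntl, Npas2 and Cry1 in a phase far from that of Dbp. AHR is a bHLH-PAS protein, as are BMAL1, CLOCK and NPAS2, and with ARNT it binds dioxin response elements.

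Promoter windows of 300 bases (250 before and 50 after each annotated start, RefSeq, GRCm38.p6) were held for 9 of the 10 genes, in 13 windows, with Per2 missing. They were searched on both strands for the E-box CACGTG, the related E′-box CACGTT, the D-boxes TTATGTAA and TTACGTAA, the REV-ERB/ROR response element (RORE), and the dioxin response core GCGTG with its extended form TNGCGTG, which contains the core. An E-box or E′-box was found for 4 of these 9 genes (Per1, Cry1, Cry2 and Nr1d1), beside 11.4% of all 32851 windows. The extended dioxin element was found for Cry1 and Nr1d1, beside 5.07% of windows. A gene with several windows counted if any of them held a match, so counts of genes and shares of windows are not like measures. A RORE lay in 1 Arntl window at bases 27 to 37 after the start, beside 0.384% of windows, and Per3 had 2 D-box matches (TTATGTAA, 0.938% of windows). Dbp held only 2 matches of the core GCGTG, which 32.4% of windows contain. The Cry1 stretch is shown because Cry1 was the gene called with TCDD. That of Nr1d1 is shown because it also held an E′-box and an extended dioxin element, though no E-box. Per1, Cry2 and Arntl are shown for their clock elements. Each stretch is written 5′ to 3′ along its gene, with the E-box, E′-box, extended dioxin element or RORE in capitals.
Cry1, chr10:85185095-85185254, minus strand: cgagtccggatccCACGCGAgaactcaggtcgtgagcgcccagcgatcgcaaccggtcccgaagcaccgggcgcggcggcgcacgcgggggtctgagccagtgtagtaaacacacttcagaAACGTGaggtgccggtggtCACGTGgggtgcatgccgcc
Nr1d1, chr11:98775393-98775582, minus strand: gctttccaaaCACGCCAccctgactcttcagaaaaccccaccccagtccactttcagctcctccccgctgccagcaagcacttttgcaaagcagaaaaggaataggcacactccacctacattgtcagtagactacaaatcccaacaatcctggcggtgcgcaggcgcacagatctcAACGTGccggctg
Per1, chr11:69098769-69098808, plus strand: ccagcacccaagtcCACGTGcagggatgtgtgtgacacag
Cry2, chr2:92434210-92434249, minus strand: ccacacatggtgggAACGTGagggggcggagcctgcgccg
Arntl, chr7:113207528-113207557, plus strand: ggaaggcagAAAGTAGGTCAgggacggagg
In Cry1 the E-box spans bases -60 to -55 from the start, the E′-box, read on the opposite strand, bases -79 to -74, and the extended dioxin element bases -187 to -181.

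Values are the authors' log2 levels, of which a difference of 1 is a doubling. Each gene is given by its probe set with the highest mean, 7 of the 10 of which averaged 5 or more. The values of each array had a median between 3.08 and 3.19. Npas2 (mean 3.67), Per1 (4.20) and Per3 (3.59) lay near those medians. Wild type TCDD replicate 6 stood apart, with a within-group SD over probe sets of 0.529 against 0.191 to 0.270 on the other 16 arrays. The probe set of Ahr read 9.29 to 9.70 on the 6 knockout arrays, against 9.44 to 10.4 in wild types, and the sources used here do not state where it lies relative to the deleted part, so it does not check the labels. Cyp1a1, the classic AHR target, read 12.6 on the array labelled knockout TCDD replicate 1, while replicates 2 and 3 of that group read 5.32 and 5.34. TCDD differences in knockouts are therefore also given without that array. Differences of the TCDD effects, which rest on it too, are so given for some genes only. Of 6 genes of the AHR battery, 0 passed with TCDD in knockouts, where only 0.011% of all genes passed. In wild types 6 passed as higher, beside 6.32% of all genes in either direction. Cyp1a2 in knockouts read 11.2 to 13.3 with TCDD against 11.3 to 11.5 with corn oil. The linear levels of 7 hepatocyte markers were summed on each array, and the sum was put on the log2 scale. In knockouts it was 17.98 to 18.10 with TCDD against 18.07 to 18.11 with corn oil. In wild types it was 17.85 to 17.96 with TCDD against 17.98 to 18.03 with corn oil. Neither the wild type groups nor the corn oil genotypes overlapped in this sum. Of these 7, Ahsg and Apoa1 passed as lower with TCDD in wild types (-0.10 and -0.14), beside 2.56% of all genes. Ahsg passed as higher between genotypes (0.15), where 2.34% of all genes passed. Summed in the same way, 4 endothelial markers gave 10.4 with TCDD against 10.3 to 10.5 with corn oil in knockouts. In wild types they gave 10.1 to 10.3 with TCDD against 10.5 to 10.8 with corn oil. Clec4g and Stab2 passed as lower, beside 2.56% of all genes. Pecam1 (mean 5.40 with TCDD against 5.58) and Kdr (7.07 against 6.89) did not pass, and Kdr went the other way. Summed markers of red blood cells, leukocytes and Kupffer cells, stellate cells and cholangiocytes overlapped between TCDD and corn oil in wild types. So did those of kidney, exocrine pancreas and muscle. Whether the hepatocyte and endothelial marker differences had a part in the results below was not tested. In whole liver, fewer cells of a type and less RNA per cell cannot be told apart.

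**Figure D1:**
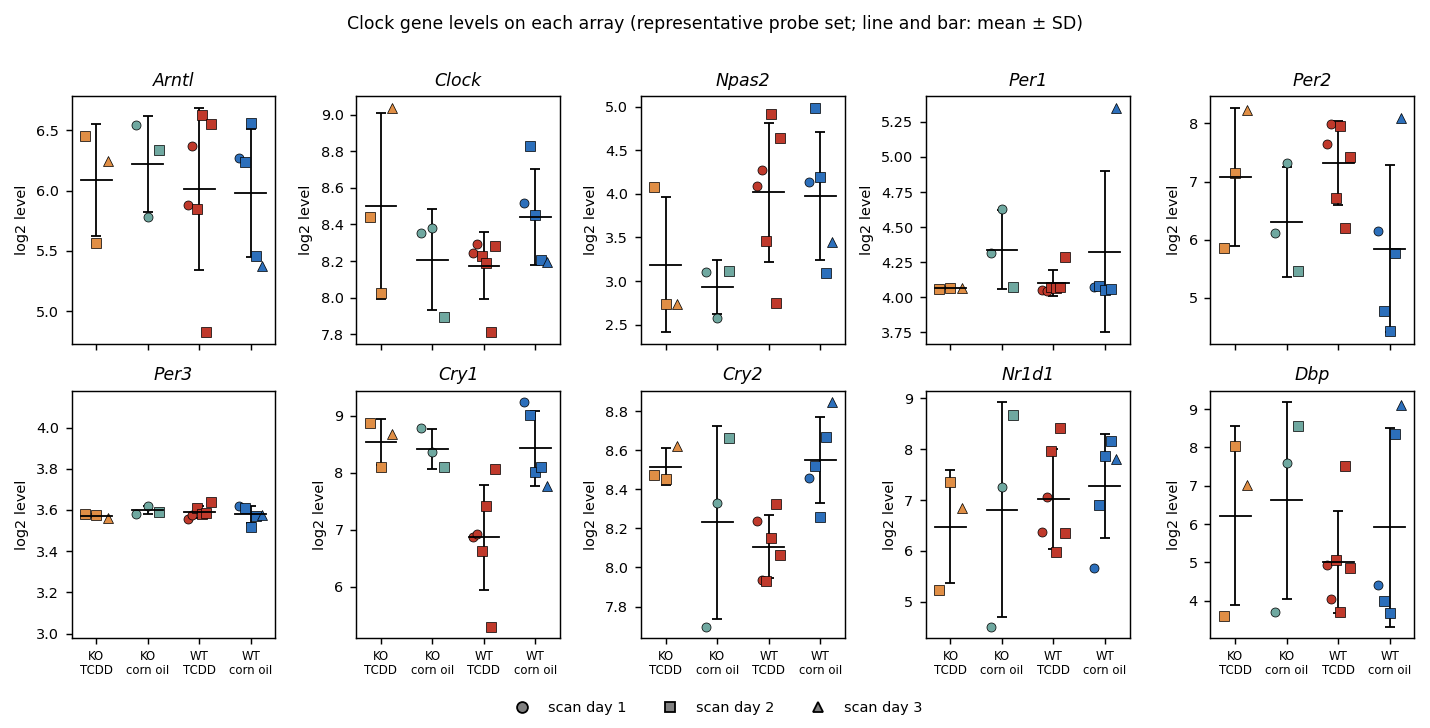
Log2 level of each clock gene (y axes differ between panels) on every array, with knockout (KO) and wild type (WT) groups along the x axis and symbols giving the scan day. Lines and bars are the mean ± SD. Cry1 sits lower in wild type livers given TCDD than in the other groups, apart from the array at 8.06, and Dbp splits within every group.

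The repressor Cry1 was the only one of the 10 genes that passed the test (limma, adjusted p under 0.05 over all probe sets) after TCDD in wild types, and it was lower. Over all genes 6.32% passed in this comparison, 2.56% as lower. Cry1 encodes the cryptochrome that with PER proteins silences the BMAL1 heterodimer. In knockouts its level was 8.87, 8.10 and 8.68 with TCDD, against 8.79, 8.37 and 8.10 with corn oil. Wild type livers had a lowest value of 5.29, a median of 6.90 and a highest value of 8.06 with TCDD (n = 6), against 9.24, 9.01, 8.02, 8.11 and 7.77 with corn oil. The TCDD arrays of wild types were thus below all corn oil arrays except for replicate 6, at 8.06, which lay above 2 of them. The knockout groups overlapped.

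With TCDD, Cry1 differed by 0.13 ± 0.56 (SE, 95% interval -1.07 to 1.32) in knockouts, or -0.034 without the array labelled replicate 1. In wild types it differed by -1.56 ± 0.41, or 2.95-fold lower, with limma's adjusted p = 0.0491 and a lower level on 5 of the 6 TCDD arrays than on any corn oil array. That p lies just under the threshold. The call ended after quantile normalization (adjusted p = 0.0562) and with scan day as a block (-1.68, adjusted p = 0.0577). Within scan day 1, with 2 TCDD arrays and 1 corn oil array, the difference was -2.34. Within day 2, with 4 and 3 arrays, it was -1.53, with adjusted p = 0.543 in limma. The call also ended without any 1 of 15 of the 17 arrays (differences of -1.80 to -1.25, adjusted p from 0.0169 to 0.136 in limma over all 17). It held without TCDD replicate 6 (-1.80, adjusted p = 0.0169) or corn oil replicate 5 (-1.73, adjusted p = 0.0479) of the wild types. The TCDD effects differed between genotypes by 1.69 ± 0.69 (knockout minus wild type, 95% interval 0.20 to 3.18). With an unadjusted p = 0.0290 and an adjusted p = 0.521 from limma, a difference between the genotypes did not pass. Without the array labelled knockout TCDD replicate 1 that difference was 1.53. With corn oil alone, Cry1 averaged 8.42 ± 0.34 (SD, n = 3) in knockouts and 8.43 ± 0.65 (n = 5) in wild types.

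Cry2, the second cryptochrome, had the smallest within-group spread of the 7 clock genes averaging 5 or more (SD 0.25), although that SD was above the median of 0.187 over all probe sets at such levels. Its level was 8.47, 8.45 and 8.62 with TCDD in knockouts, against 7.70, 8.33 and 8.66 with corn oil. In wild types TCDD arrays ran from 7.93 through a median of 8.11 to 8.33, against 8.46, 8.52, 8.26, 8.67 and 8.85 with corn oil. Only the lowest corn oil array, replicate 3, fell inside the range of the TCDD arrays. The difference was 0.29 ± 0.20 in knockouts (limma, adjusted p = 0.875), 0.31 without the array labelled TCDD replicate 1, and 0.019 to 0.50 when 1 array was left out at a time. For wild types it was -0.44 ± 0.15 (limma, adjusted p = 0.145, 95% interval -0.76 to -0.13), and it passed only when probe sets averaging under 5 were left out first (adjusted p = 0.0446) or without knockout corn oil replicate 1 (adjusted p = 0.0325), which enters through the shared spread. The TCDD effects differed by 0.73 ± 0.25 (unadjusted p = 0.0106 and adjusted p = 0.303 in limma), in the same direction as those of Cry1. With 1 array left out the values were 0.46 to 0.95, and 0.75 without the array labelled knockout TCDD replicate 1. Cry1 and Cry2 were the 2 genes with an unadjusted p under 0.05 for this difference, beside 11% of all genes.

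Among the Period genes, whose proteins carry the cryptochromes into the repressor complex, Per2 alone could be followed. Its level was 5.85, 7.14 and 8.24 with TCDD in knockouts, against 6.11, 7.33 and 5.46 with corn oil. Wild types had a lowest value of 6.20, a median of 7.53 and a highest value of 7.98 with TCDD, against 6.15, 4.78, 4.42, 5.77 and 8.09 with corn oil. All 6 TCDD arrays of wild types were above 4 of the 5 corn oil arrays, and corn oil replicate 5 was above them all. Per2 differed by 0.78 ± 0.86 in knockouts (95% interval -1.06 to 2.63), and by 1.39 without the array labelled TCDD replicate 1. For wild types this difference was 1.48 ± 0.64 (95% interval 0.11 to 2.85) with limma's adjusted p = 0.358. With scan day as a block the difference was 1.84 and passed (limma, adjusted p = 0.0260). It was 0.99 with array weights and 0.62 as the mean of the Per2 probe sets, and neither passed (adjusted p = 0.573 and 0.203 in limma). The other Per2 probe sets averaged 2.33 and 1.68 over all arrays, below the median of every array. The 0.62 includes these low probe sets, so it cannot be set against 1.48 as a measure of size. For the probe set with the highest mean, leaving out 1 array at a time gave 1.12 to 2.04, with no call. Corn oil replicate 5 was the single wild type array of scan day 3.

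Per1 read between 4.05 and 4.32 on 15 of the 17 arrays, with 4.63 on knockout corn oil replicate 2 and 5.35 on wild type corn oil replicate 5. The 6 probe sets of Per3 had means of 1.91 to 3.59, and that with the highest mean stayed within 3.52 to 3.64 on all arrays. Since nearly all arrays read 1 low level, their differences are not described singly, but both genes are included in the counts and medians over the 10 genes and in the plot of differences.

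The activator Arntl passed in no comparison. It read 6.45, 5.57 and 6.24 with TCDD in knockouts, against 6.54, 5.78 and 6.34 with corn oil. In wild types it ran from 4.82 through a median of 6.12 to 6.63 with TCDD, against 6.27, 6.24, 6.56, 5.46 and 5.37 with corn oil. The groups overlapped in each comparison, and the widest range was that of the wild types given TCDD. TCDD minus corn oil was -0.13 ± 0.44 in knockouts (-0.32 without the array labelled TCDD replicate 1) and 0.04 ± 0.33 in wild types (95% interval -0.67 to 0.74), and the knockout minus wild type difference with corn oil was 0.24 ± 0.40.

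Npas2, the CLOCK relative that can take its place beside BMAL1, read 4.08, 2.74 and 2.74 with TCDD in knockouts, against 3.11, 2.58 and 3.12 with corn oil. Its wild type arrays spread from 2.75 to 4.91 with TCDD (median 4.18), against 4.13, 4.99, 4.20, 3.09 and 3.45 with corn oil. The 3 knockout corn oil arrays were below 4 of the 5 wild type corn oil arrays, and the remaining wild type array (3.09) lay among them. This gave -1.04 ± 0.51 for knockout minus wild type (limma, adjusted p = 0.630) at levels near the array medians, and the TCDD differences were 0.25 ± 0.57 in knockouts and 0.05 ± 0.42 in wild types. Without the array labelled TCDD replicate 1, which read 4.08, the knockout difference turned to -0.19.

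Clock, which encodes the usual partner of BMAL1, had 4 probe sets that did not move alike. That with the highest mean read 8.44, 8.03 and 9.04 with TCDD in knockouts, against 8.35, 8.38 and 7.89 with corn oil, and its wild type arrays lay between 7.81 and 8.29 with TCDD (median 8.24), against 8.52, 8.83, 8.45, 8.20 and 8.20 with corn oil. None of its differences passed, with 0.29 ± 0.23 for TCDD in knockouts (0.32 without the array labelled replicate 1) and -0.27 ± 0.17 in wild types, and -0.23 ± 0.21 for genotype.
A second probe set, 1435775_at, read 7.47, 7.38 and 7.41 with TCDD in knockouts, against 7.21, 7.02 and 7.25 with corn oil. In wild types it ran from 7.37 through 7.51 to 7.65 with TCDD, against 7.38, 7.61, 7.58, 7.46 and 7.64 with corn oil. The 3 knockout corn oil arrays were the lowest of all 17, with no overlap with any other group.
For this probe set knockout minus wild type with corn oil was -0.37 ± 0.07, or 1.30-fold lower, on 3 of 3 arrays (limma, adjusted p = 0.0145). It was the 1 probe set called among the 23 in the genotype comparison, beside 1.45% of all probe sets. The call ended without knockout corn oil replicate 2 (-0.30, adjusted p = 0.0850 in limma) and with the replicate number as a block. Within scan day 1, with 2 knockout arrays and 1 wild type array, the difference was -0.27. Within day 2, with 1 knockout array and 3 wild type arrays, it was -0.30. The probe sets 1418660_at (-0.50 ± 0.15, limma's adjusted p = 0.158) and 1439314_at (-0.05 ± 0.11) did not pass. Across the 17 arrays the levels of 1435775_at correlated with those of the other 3 probe sets at r = 0.58, 0.08 and 0.05, which share every array. In knockouts 1435775_at differed with TCDD by 0.26 ± 0.08 (0.24 without the array labelled replicate 1) with no overlap between 3 and 3 arrays, but limma's adjusted p was 0.875, and 38.5% of all genes did not overlap in that comparison.

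Nr1d1 and Dbp differed far more between arrays of a group than between groups. Nr1d1 read 5.22, 7.35 and 6.85 with TCDD in knockouts, against 4.50, 7.25 and 8.67 with corn oil. In wild types it ran from 5.98 through 6.71 to 8.41 with TCDD, against 5.66, 6.91, 7.86, 8.16 and 7.81 with corn oil. Every pair of groups overlapped, with differences of -0.33 ± 0.99 for TCDD in knockouts, -0.26 ± 0.73 for TCDD in wild types and -0.47 ± 0.88 for genotype. Without the array labelled knockout TCDD replicate 1, the lowest of its group for both genes, the knockout TCDD difference was 0.29 for Nr1d1 and 0.92 for Dbp, with the opposite sign to that of all arrays.
Dbp, a PAR bZIP transcription factor that binds D-boxes and is itself a direct target of the BMAL1 heterodimer, read 3.60, 8.05 and 7.03 with TCDD in knockouts, against 3.71, 7.58 and 8.56 with corn oil. In wild types it ran from 3.70 through 4.89 to 7.50 with TCDD, against 4.42, 4.01, 3.68, 8.36 and 9.10 with corn oil. Its levels formed 2 sets, with 10 arrays between 3.60 and 5.06, 7 between 7.03 and 9.10, and none between them. The higher set held 2 of 3 knockout TCDD, 2 of 3 knockout corn oil, 1 of 6 wild type TCDD and 2 of 5 wild type corn oil arrays, drawn from all 3 scan days.
A second Dbp probe set followed the first (r = 0.976 over 17 arrays). TCDD minus corn oil for Dbp was -0.39 ± 1.69 in knockouts and -0.90 ± 1.25 in wild types, and knockout minus wild type was 0.70 ± 1.51, with 95% intervals that spanned -4.02 to 3.23, -3.59 to 1.79 and -2.54 to 3.94. A difference of 1 in either direction, a doubling or halving, lay inside all 3 intervals, so a Dbp change of that size was not detectable here.

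**Figure D2:**
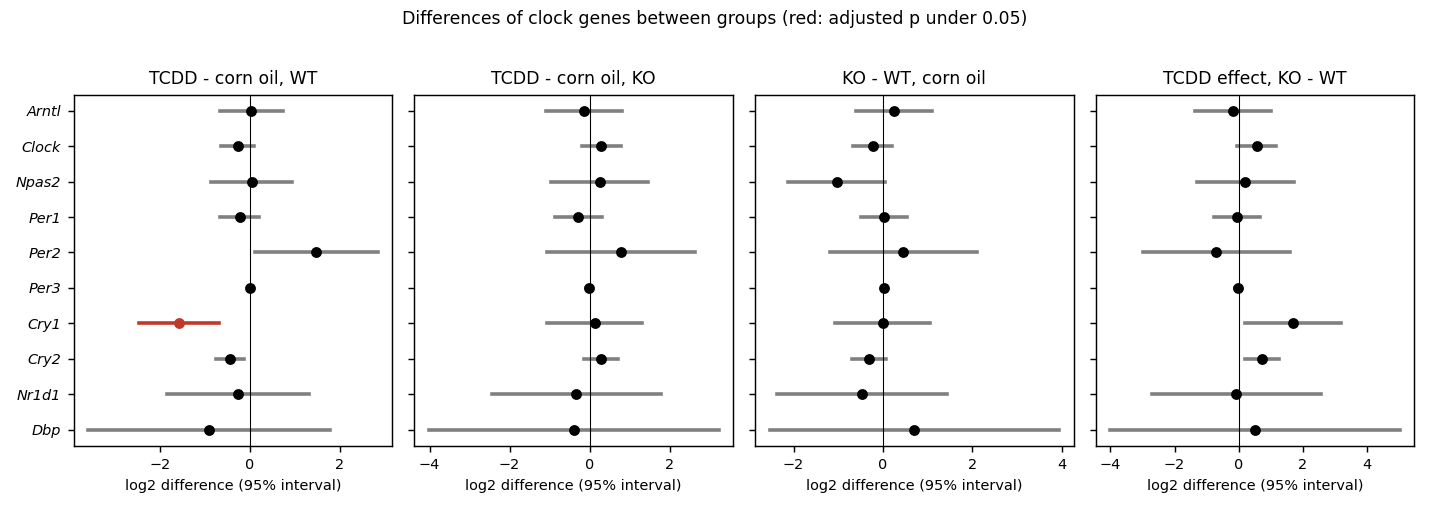
Log2 differences of the 10 clock genes in the 4 comparisons (one panel each, x axes differ), as points with 95% intervals from limma. The single red point is Cry1 at -1.56 in wild types, and the Dbp intervals are the widest.

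Over the 10 genes, 0 passed for TCDD in knockouts (0.011% of all genes), 1 for TCDD in wild types, 0 for genotype with corn oil (2.34%) and 0 for the difference of the TCDD effects (1.63%). At an unadjusted p under 0.05 the counts were 0, 3, 0 and 2, beside 3.28%, 16.8%, 11.5% and 11% of all genes. The median difference of the 10 genes was 0.05 in knockouts and -0.24 in wild types for TCDD, beside -0.02 and 0.01 over all genes. In wild types 6 of the 10 had a lower mean with TCDD. The arrays of the groups did not overlap for 2 of the 10 genes in knockouts with TCDD (38.5% of all genes), namely Per1 and Per3 at their low levels, for 0 in wild types with TCDD (5.86%) and for 0 between genotypes (8.28%). The genotype and wild type TCDD comparisons share the wild type corn oil arrays, and the genotype and knockout TCDD comparisons share the knockout corn oil arrays.

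The spread between arrays of 1 group ordered the clock genes. The within-group SD was 2.15 for Dbp, 1.25 for Nr1d1, 1.09 for Per2, 0.72 for Npas2, 0.71 for Cry1 and 0.56 for Arntl, but 0.29 for Clock and 0.25 for Cry2. Probe sets averaging 5 or more had a median of 0.187 (n = 13697). Dbp ranked 4 of 45037 probe sets, after Cish, Egr1 and Lcn2, which were named after their values were seen. Nr1d1 ranked 71 and Per2 139, so 3 of the 10 genes lay in the top 0.309% of all 45037 probe sets. Clock and Cry2, the least variable of the genes averaging 5 or more, ranked 4296 and 5782. Among only the 13697 probe sets averaging 5 or more, Dbp lay in the top 0.0292%, Nr1d1 in the top 0.467% and Per2 in the top 0.913%. There Clock lay in the top 22.2% and Cry2 in the top 30.2%.

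**Figure D3:**
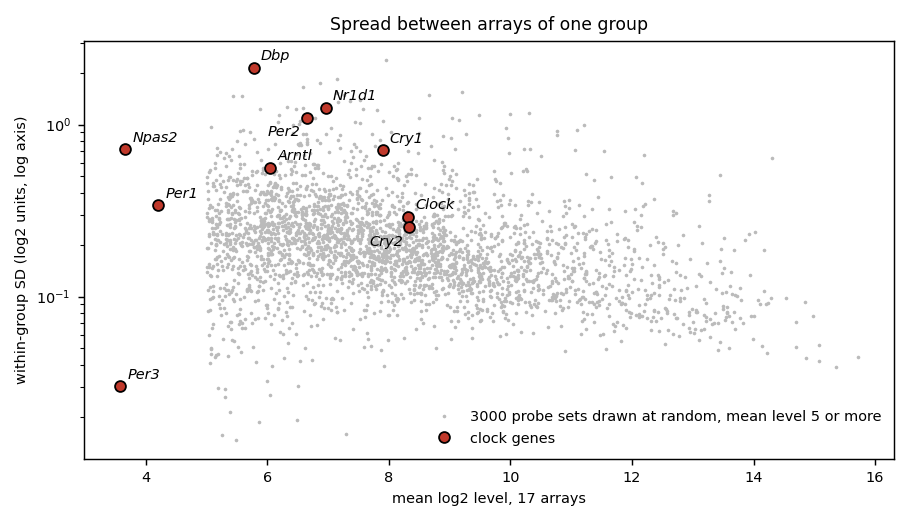
Within-group SD in log2 units (log axis) against mean log2 level for the clock genes (red) and 3000 randomly drawn probe sets averaging 5 or more (grey). Dbp at 2.15, Nr1d1 at 1.25 and Per2 at 1.09 lie at the upper edge, and Clock and Cry2 lie within the cloud.

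Deviations from the group mean ran together across arrays for most of these genes. Per1 and Per3, which averaged under 5, were left out here. Npas2 (mean 3.67) was kept although it too lay near the array medians. The correlations below are descriptions over 17 arrays, which share the livers and the group means subtracted, and the genes were chosen knowing that they belong to 1 network. Arntl deviated with Npas2 (Pearson's r = 0.856, Spearman's rho = 0.853) and with Cry1 (r = 0.792, rho = 0.696). Without the 2 arrays farthest from the median of Arntl, r was 0.786 with Npas2 and 0.592 with Cry1. Among the 10 arrays of scan day 2, deviations taken within that day gave r = 0.910 and 0.83, whereas days 1 and 3 held too few arrays. Relative to their group means, Arntl, Npas2 and Cry1 thus tended to be high or low on the same arrays. Npas2 and Cry1 deviated together at r = 0.769, but their levels, which hold the group differences, correlated at only 0.128.

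Nr1d1 ran the opposite way, with r = -0.579 against Arntl, -0.609 against Npas2 and -0.729 against Cry1. Without the 2 arrays farthest from the median of Arntl, Npas2 or Cry1 in turn, these were -0.502, -0.510 and -0.786. Spearman's rho was -0.640, -0.605 and -0.821, and within scan day 2 r was -0.843, -0.944 and -0.857. Nr1d2, which encodes the related REV-ERBβ, went with Nr1d1 (r = 0.824, rho = 0.826, and 0.792 without the 2 arrays farthest for Nr1d1). Tef, a PAR bZIP relative of Dbp, went against Arntl (r = -0.871, rho = -0.865, and -0.775 without the 2 arrays farthest for Arntl). Per2 followed none of them closely, with r of -0.149 with Arntl, 0.101 with Cry1, 0.254 with Cry2 and -0.084 with Nr1d1.

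**Figure D4:**
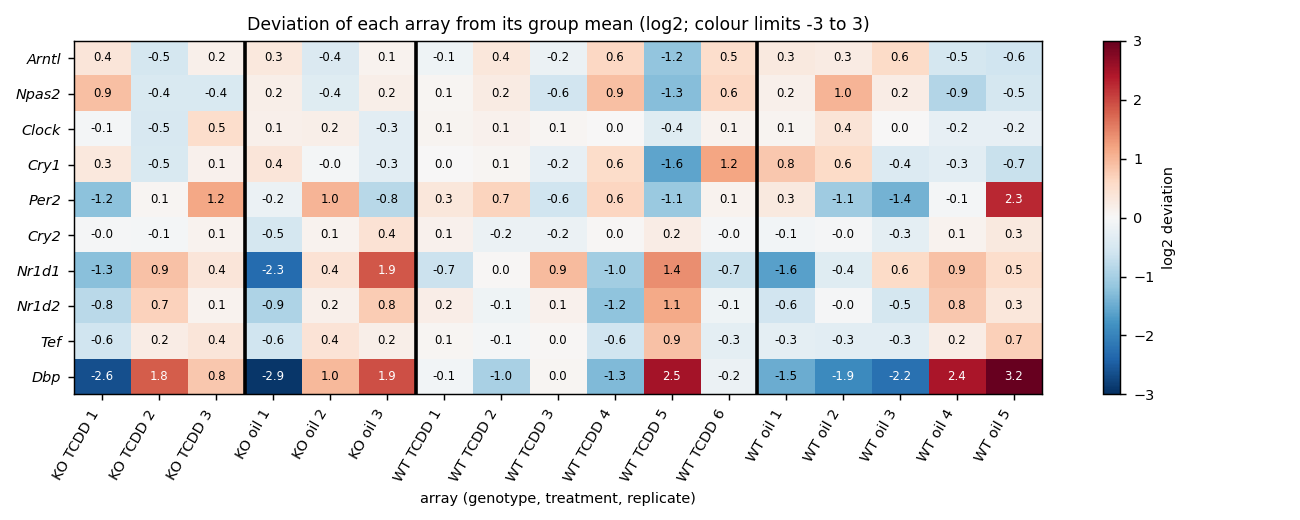
Deviation of each array (x axis) from its group mean in log2 units for 8 clock genes and their relatives Nr1d2 and Tef (y axis), with red above and blue below and values printed. On wild type TCDD replicate 5 the rows of Arntl, Npas2 and Cry1 are below 0 while those of Nr1d1, Nr1d2, Tef and Dbp are above.

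Because Dbp levels formed 2 sets, its relations are given within each set. Among the 10 arrays with low Dbp the levels of Dbp and Arntl correlated at r = -0.731, but among the 7 with high Dbp at -0.095. For Cry1 the values were -0.469 and 0.087, and for Nr1d1 0.357 and 0.514. For Npas2 they were -0.120 and 0.884, and for Cry2 -0.130 and 0.672. On the 7 arrays with high Dbp, Npas2 read only 2.58 to 3.45, near the array medians. No relation of Dbp with another clock gene exceeded 0.6 in size with the same sign in both sets. The split was made on Dbp itself, which narrows its range and can lower r, so these values do not show Dbp to be unrelated. Over all 17 arrays its deviations correlated at r = -0.798 with Arntl, -0.758 with Npas2, -0.633 with Cry1 and -0.546 with Clock. With Nr1d1 r was 0.761, with Cry2 0.752 and with Per2 0.379. Those values hold the step between the 2 sets.

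**Figure D5:**
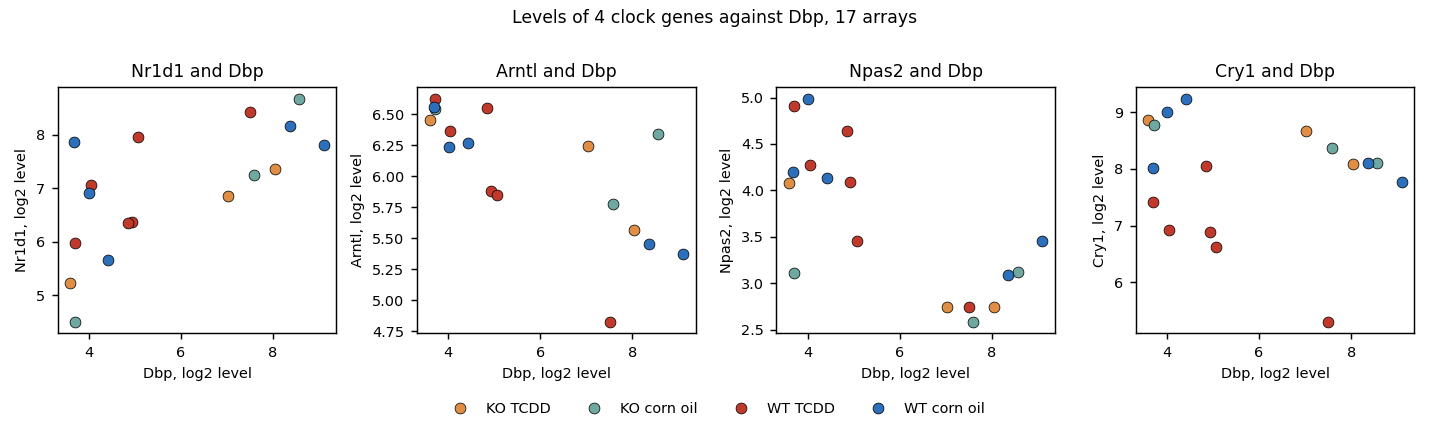
Log2 levels of Nr1d1, Arntl, Npas2 and Cry1 (y axes) against Dbp (x axes) on the 17 arrays, coloured by group. Every group has arrays on both sides of the gap in Dbp between 5.06 and 7.03.

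The genes most like 3 of the clock genes were sought by Pearson's r of the levels over the 17 arrays among 7053 other genes averaging 6 or more. Cry1 was closest to Map7d1 (r = 0.915, and 0.825 after the group means were subtracted), Tpst2, Pdxk, Creb3l2 and Capn10 (0.894), and was most opposite to Scamp3 (-0.888), Ddb1 and Foxo3. Since Cry1 itself was lower in wild type TCDD livers, these r hold that group difference. Arntl was closest to Med8 (0.863, and 0.885 after the group means were subtracted), Ethe1, Anapc11, Pdcl3 and Chka, and most opposite to Nr1d2 (-0.756), Creb3l3 and Stx17. Dbp was closest to Nr1d2 and Tef, followed by Rhoq, Fbxo34 and Tspyl1, and most opposite to Nedd4l, Ppard and Chka. Within the low and high Dbp arrays, r with Nr1d2 was 0.587 and 0.452, and with Tef it was -0.163 and 0.245. The best of 7053 genes is high partly through the search.

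Other genes of the clock were taken from a list chosen for this comparison, of which 16 were analysed here. With TCDD in wild types 1 of the 16 passed, as lower, namely Fbxw11, an F-box protein that targets PER proteins for degradation, at -0.16 ± 0.04 (limma, adjusted p = 0.0143), beside 2.56% of all genes as lower. Bhlhe40, which encodes the repressor DEC1, differed by -1.39 ± 0.64 (adjusted p = 0.422 in limma), Tef by -0.68 ± 0.29 (0.340) and Nfil3, the E4BP4 repressor that competes at D-boxes, by -0.44 ± 0.30 (0.809). In the 3 other comparisons 0 of the 16 passed. The largest of these differences were those of Bhlhe40, at -0.41 ± 0.86 for TCDD in knockouts, 0.94 ± 0.77 for genotype and 0.98 ± 1.07 for the difference of the TCDD effects. Tef had -0.22 ± 0.39, 0.31 ± 0.35 and 0.46 ± 0.48 in the same order. Without the array labelled knockout TCDD replicate 1, the knockout TCDD differences of Bhlhe40 and Tef turned to 0.29 and 0.077, and that of Rora was -0.11. Rora, which encodes a ROR receptor, differed by -0.17 ± 0.38 with TCDD in knockouts and by 0.64 ± 0.34 between genotypes, and the TCDD effects on Btrc, an F-box gene like Fbxw11, differed by -0.39 ± 0.13 (limma, adjusted p = 0.307).

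Of 12 liver genes known to cycle under the clock, 11 were measured (Por was not analysed here). Avpr1a, the vasopressin V1a receptor, fell with TCDD in wild types by 1.09 ± 0.21 on the log2 scale (limma, adjusted p = 0.00676), the only one of the 11 that passed there, beside 2.56% of all genes as lower. Elovl3, a fatty acid elongase, differed by -1.21 ± 0.35 (adjusted p = 0.0753 in limma) and Noct, which encodes nocturnin, by -0.75 ± 0.81 (0.890). Elovl3 was the single gene of the 11 called between genotypes, beside 2.34% of all genes, with a lowest value of 10.1 and a highest of 10.9 in knockouts given corn oil, against 12.0 to 13.3 in wild types given corn oil. The groups did not overlap, and the difference was -2.29 ± 0.42 (limma, adjusted p = 0.0117). The call ended without knockout corn oil replicate 2 (-2.04, adjusted p = 0.0697 in limma). Within scan day 1, with 2 knockout arrays and 1 wild type array, the Elovl3 difference was -2.51. Within day 2, with 1 knockout array and 3 wild type arrays, it was -2.40. Noct differed by 2.55 ± 0.97 between genotypes (limma, adjusted p = 0.371). Upp2, a uridine phosphorylase, averaged 11.32 ± 0.40 (SD, n = 3) in knockouts and 9.82 ± 0.67 (SD, n = 5) in wild types given corn oil (adjusted p = 0.0720 in limma). Unlike Elovl3, 9 of the 11 had a higher mean in knockouts, with a median difference of 0.57, beside 0.006 over all genes. At limma's unadjusted p under 0.05 the count was 6 of 11, beside 11.5% of all genes. The arrays did not overlap for 3 of the 11, beside 8.28%. With TCDD in knockouts 0 of the 11 passed, with 0.92 ± 0.47 for Elovl3, -0.67 ± 0.73 for Alas1 and 0.65 ± 0.40 for Usp2, or 1.38, -0.81 and 1.23 without the array labelled TCDD replicate 1. The TCDD effects on Elovl3 differed by 2.12 ± 0.58 (limma, adjusted p = 0.139), on Avpr1a by 1.01 ± 0.36 and on Alas1 the adjusted p was 0.632, so none passed. Without the array labelled knockout TCDD replicate 1 that of Elovl3 was 2.59 and passed (adjusted p = 0.0425 in limma). That of Avpr1a was then 0.75 and did not pass.

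Genes that answer glucocorticoids or fasting, both of which also set the phase of the liver clock, numbered 10. In wild types 1 passed with TCDD, namely Pck1, the gluconeogenic enzyme PEPCK, which fell by 1.68 ± 0.28 on the log2 scale (limma, adjusted p = 0.00220), beside 2.56% of all genes as lower. Sgk1 (0.74 ± 0.45) and Tat (-0.55 ± 0.21) did not pass. In the 3 other comparisons 0 of the 10 passed. Angptl4 and Zbtb16 had the largest genotype differences, at -1.53 ± 0.69 and -1.66 ± 0.84 (adjusted p = 0.558 and 0.672 in limma). Sgk1 differed by 1.02 ± 0.54 between genotypes. With TCDD in knockouts the largest were Angptl4 at -0.70 ± 0.77, Zbtb16 at -0.59 ± 0.94 and Sgk1 at 0.51 ± 0.60, or -0.52, -0.17 and 0.80 without the array labelled TCDD replicate 1. The TCDD effects on Pck1 differed by 1.88 ± 0.47 (limma, adjusted p = 0.0866), on Angptl4 by -0.80 ± 0.96 and on Tsc22d3 by 0.70 ± 0.55. Without the array labelled knockout TCDD replicate 1 that of Pck1 was 1.96 (limma, adjusted p = 0.12).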

How the data were processed

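The data were 17 Affymetrix Mouse430_2 expression arrays. The deposited values are on a log2 scale, and the submitters' processing notes name RMA, GCRMA and affy 1.5.8; the sources used here do not state which method gave the values. No value was rescaled. Control probe sets (64) were left out, leaving 45037. Names came from the platform annotation (34945 probe sets name 1 gene, 932 several, 9160 none), updated through the GRCm38.p6 gene table. For a gene, the probe set with the highest mean among those naming it alone was used. The precision is limited by the number of arrays.

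Means of the 4 groups were fitted to all arrays with limma 3.58.1 (R 4.3.3, lmFit and eBayes, 13 residual degrees of freedom), with Benjamini-Hochberg adjustment over all probe sets within each comparison and a threshold of 0.05. The comparisons were TCDD minus corn oil in each genotype, knockout minus wild type with corn oil, and the knockout minus the wild type TCDD effect. The procedure was tested on simulated data. Scan days (3) came from the scanner files.

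The 10 genes and all lists were chosen with earlier results of these data known. The text names all 10 genes and, from each other list, every called gene and up to 3 of the largest differences per comparison. Likeness was sought for Arntl, Cry1 and Dbp. Alternatives comprised 10 other settings and leaving out each of the 17 arrays.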

Additional observations from a re-analysis of the deposited data

Results flagged for a closer look

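Within each of the 2 wild type groups the most extreme array was set against the gap that Dixon's test allows, over 20 combinations of gene and group, of which chance marks about 1 in 20. The Clock level on wild type TCDD replicate 5 was 7.81, below the next array at 8.19. On the same array Dbp was 7.50, above the next TCDD array at 5.06, and Arntl, Cry1 and Npas2 had their lowest wild type TCDD values there. Per1 was 4.29 on wild type TCDD replicate 6, the array that stood apart over all probe sets, with the next at 4.08. Per1 was 5.35 on wild type corn oil replicate 5, with the next also at 4.08, and that array held the highest wild type values of Dbp (9.10) and Per2 (8.09).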

How the results depend on the processing

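For TCDD in wild types the main setting called 1 clock gene, Cry1. The count was 0 after quantile normalization, 0 within scan day 1, 0 within scan day 2 and 2 (Cry1 and Cry2) with a mean level of at least 5, and 0 to 1 when 1 array was left out (Cry2 in place of Cry1 without knockout corn oil replicate 1). With scan day as a block the count stayed 1, but it was Per2 (1.84, adjusted p = 0.0260 in limma) and not Cry1. In the 3 other comparisons 0 clock genes were called under any setting or without any 1 array. Replicate numbers did not pair the arrays (r of -0.298 to 0.0981 over 11 same-numbered pairs of groups, 0 over 0.1), and with the number as a block Cry1 stayed the 1 call (-1.80), while 1435775_at of Clock (-0.35) no longer passed. Within scan days 1 and 2 this probe set gave -0.27 and -0.30, Elovl3 between genotypes -2.51 and -2.40, and in wild types Avpr1a -1.17 and -1.10, Pck1 -1.93 and -1.63 and Fbxw11 -0.16 in both, none past the threshold. Fbxw11 also missed it with trend and robust moderation (adjusted p = 0.0594) and as the mean of its probe sets. With the level filter Elovl3 in wild types (adjusted p = 0.0193), Upp2 between genotypes (0.0203) and the differences of effect of Elovl3 (0.0415) and Pck1 (0.0263) passed. Leaving out 1 array also gave a call to Elovl3 in wild types (without TCDD replicate 3, corn oil replicate 5 or knockout TCDD replicate 1, adjusted p = 0.0408, 0.0322 and 0.0433), to Upp2 between genotypes (without wild type corn oil replicate 3, 0.0437) and to the difference of effect of Pck1 (without wild type TCDD replicate 3, 0.0131). Day and treatment fits rest on few arrays, with 1 wild type corn oil array on day 1 and 1 knockout corn oil array on day 2. A call lost within a day therefore cannot be told apart from too few arrays. Causes were not tested.

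Of 666 gene differences under other settings, 604 kept sign and side of the threshold, and 37 changed sign, 0 of them called differences. In wild types with TCDD these were Arntl -0.18, Npas2 -0.41 and Nr1d1 0.25 with array weights, Arntl -0.070 and Npas2 -0.078 with the replicate block, Arntl -0.037, Npas2 -0.092 and Nr1d1 0.016 with scan day as a block, Arntl -0.15, Nr1d1 1.05 and Dbp 0.066 within day 1, and Arntl -0.12 and Npas2 -0.15 within day 2. In knockouts with TCDD they were Alas1 0.045 with array weights, Arntl 0.043 with scan day as a block, and Cry2 -0.20, Bhlhe40 0.68, Alas1 1.72 and Zbtb16 0.20 within day 2. Between genotypes they were Per2 -0.11 with array weights, Arntl -0.0069 with the replicate block, Nr1d1 0.28 with scan day as a block, Arntl -0.11, Nr1d1 0.22 and Zbtb16 0.25 within day 1, and Cry2 0.18, Nr1d1 1.03, Bhlhe40 -0.70 and Sgk1 -0.036 within day 2. For the difference of the TCDD effects they were Arntl 0.042 and Dbp -0.85 with array weights, Arntl 0.080, Dbp -1.98 and Tef -0.016 with scan day as a block, and Dbp -2.67, Tef -0.041 and Alas1 1.09 within day 2.

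Leaving out 1 array at a time turned the sign of some uncalled differences, over these ranges. With TCDD in knockouts they were Arntl -0.35 to 0.13, Npas2 -0.19 to 0.48, Cry1 -0.034 to 0.35, Nr1d1 -1.49 to 0.60, Dbp -1.85 to 0.92, Bhlhe40 -1.26 to 0.37, Tef -0.52 to 0.077, Rora -0.48 to 0.069, Alas1 -1.84 to 0.0043, Zbtb16 -1.05 to 0.11 and Sgk1 -0.13 to 1.11. With TCDD in wild types they were Arntl -0.11 to 0.28 and Npas2 -0.17 to 0.30. Between genotypes they were Per2 -0.058 to 1.02, Cry1 -0.19 to 0.19, Nr1d1 -1.40 to 0.68 and Dbp -0.27 to 2.16. For the difference of effects they were Arntl -0.41 to 0.089, Npas2 -0.24 to 0.43, Nr1d1 -1.23 to 0.86 and Dbp -0.95 to 1.82.

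Probe sets called in wild types with TCDD numbered 1882, against 456 within day 1, 564 within day 2 and 1246 as gene means. Between genotypes they numbered 654, against 294 within day 1, 347 with the replicate block, 1310 with array weights and 996 with the level filter. For the difference of effects they numbered 501, against 239 with scan day as a block, 310 within day 2 and 1071 with array weights. In knockouts with TCDD they numbered 6, against 0 to 255 under the other settings. With 1 array left out the counts were 1466 to 1866 in wild types, 404 to 780 between genotypes (404 without knockout corn oil replicate 1), 333 to 552 for the difference of effects (333 without that same array) and 1 to 34 in knockouts, where it was 13 to 34 without any 1 knockout array and 1 or 2 without wild type TCDD replicate 3, 4 or 5 or corn oil replicate 1.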
